A study of Mus musculus with 22 samples.

Results

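Box C/D small nucleolar RNA (snoRNA) genes were followed through RNA-seq libraries of memory T helper cells recovered from mouse lung or from the circulation. A gene was a member if its name began with Snord and a number, names of the Snord115 and Snord116 clusters were left out, and its level was at least 1 FPKM in at least 2 of 8 RNA libraries. FPKM scales the fragments of a gene to its length and to the mapped fragments of the library, so levels of different genes are compared per length. The rule kept 70 of 81 such Snord names, out of 55291 gene names in each library. The members were thus chosen by their FPKM, and their levels are given as a description.

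At the edge of the rule, the second highest library value was 1.27 FPKM for Snord1a and 1.29 FPKM for Snord123. Just outside it were Snord19, which reached 0.6 FPKM, and Snord14e, which was listed at 4.74 FPKM in 1 library and at no more than 0.0549 FPKM in any other.

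The study profiled memory T helper cells derived from tissue-resident (TRM) or circulating (Tcirc) memory cells, and its 4 RNA groups of 2 libraries each are named by location and origin: TissueExTcirc, TissueExTRM, CirculatingExTcirc and CirculatingExTRM. Per the labels, all are CD4+ T cells of female mice aged 6 to 10 weeks with Balb/c as the host strain. The protocols describe type 2 helper (Th2) cells from OT-II creERT2 or DO11.10 donors, whose transgenic T cell receptors recognise ovalbumin (OVA), transferred into OVA-sensitised recipients. These were BALB/c-nu/nu mice, which lack a thymus and so have few T cells of their own, or C57BL/6 mice carrying Ly5.2. Tamoxifen, which activates the creERT2 recombinase, and an OVA rechallenge were given, and between 3000 and 50000 cells per population were sorted on day 49 in a first experiment or on day 71 in a second. The labels do not say from which experiment an RNA library comes, so experiment and group cannot be told apart. All libraries carry the tissue label lung, although the design text takes circulating cells from blood. Nothing says that replicates came from separate animals, so that p-values capture no more than library-to-library spread, possibly of technical origin.

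The libraries differed widely in what they detected, which touches every comparison of the snoRNA genes. Between 30488 and 37894 gene names were listed above 0 in the 4 tissue libraries and 29688 in CirculatingExTRM replicate 2, against 12785 and 7042 in CirculatingExTcirc replicates 1 and 2. CirculatingExTRM replicate 1 listed only 917 names and was treated as missing when levels were compared, so CirculatingExTRM is 1 library in every comparison. The summed level of 8 T cell markers lay between 759 and 1118 FPKM in tissue and at 1028, 835 and 1356 FPKM in CirculatingExTcirc replicates 1 and 2 and CirculatingExTRM replicate 2. Of these markers, 8 of 8 were above 0 in each tissue library and in CirculatingExTRM replicate 2, 7 of 8 in CirculatingExTcirc replicate 1 and 5 of 8 in its replicate 2. Depth is unknown because the values are not counts. A value of 0 is reported only as a listing at 0, since abundant messages such as Rpl13a and Npm1 were also listed at 0 in CirculatingExTcirc replicate 2.

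Box C/D snoRNAs are short nuclear RNAs that carry a C box and a D box near their ends and are bound by fibrillarin (Fbl), Nop56, Nop58 and Snu13. Most of them base-pair with precursor ribosomal RNA and guide the addition of a methyl group to the 2′ hydroxyl of a chosen ribose, while a few, among them U8, U13, U14 and U22, take part in cutting or folding the precursor. In mammals nearly all are cut out of the introns of host genes, many of which encode ribosomal proteins or are non-coding RNAs whose spliced product is quickly degraded. Snord118 (U8) is transcribed from a promoter of its own.

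The C box, whose core reads UGAUGA, could be read for a single member. The first 28 bases of Snord33 are also annotated in RefSeq as the miRNA hairpin Mir5121 on the minus strand of chr7:45126918-45126945 (GRCm38), and the mature miRNA is the beginning of the same stretch. They are shown because Snord33 was among the 5 highest members while the gene called Mir5121 was hardly detected; capitals mark the C box, which starts at base 7 in both.

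Snord33, first 28 bases: agcuugUGAUGAgacaucucccacucau
mmu-miR-5121: agcuugUGAUGAgacaucucc

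Snord33 stood at 1216 and 1224 FPKM in TissueExTcirc and at 1613 and 981 FPKM in TissueExTRM. Mir5121, in the same libraries, stood at 1.13, 1.92, 0.208 and 0 FPKM. The 2 genes have separate values, and none is given for the shared bases alone.

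In tissue the members covered a range from under 1 to over 3000 FPKM, and the level was concentrated in a few. Summed over the 70 members, FPKM came to 18620.4 and 17161.8 in TissueExTcirc, 15829 and 11677 in TissueExTRM, 3969 and 1764 in CirculatingExTcirc and 7475 in CirculatingExTRM replicate 2. As a share of all FPKM in a library this was 1.20% and 1.05%, 1.04% and 0.845%, 0.281% and 0.188%, and 0.499%, in that order. The 4 tissue libraries were thus above the 3 circulating libraries compared by both measures. The 6 highest members, Snord15b, Snord17, Snord22, Snord21, Snord33 and Snord15a, held 53.1% to 66.6% of the members' sum in the tissue libraries. The median member stood at 43.9 to 68.1 FPKM in the tissue libraries, 18.4 FPKM in CirculatingExTRM replicate 2, 2.67 FPKM in CirculatingExTcirc replicate 1 and 0 in its replicate 2. Members listed above 0 numbered 64 to 70 in tissue libraries, 62 in CirculatingExTRM replicate 2, and 40 and 12 in CirculatingExTcirc.

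**Figure D1:**
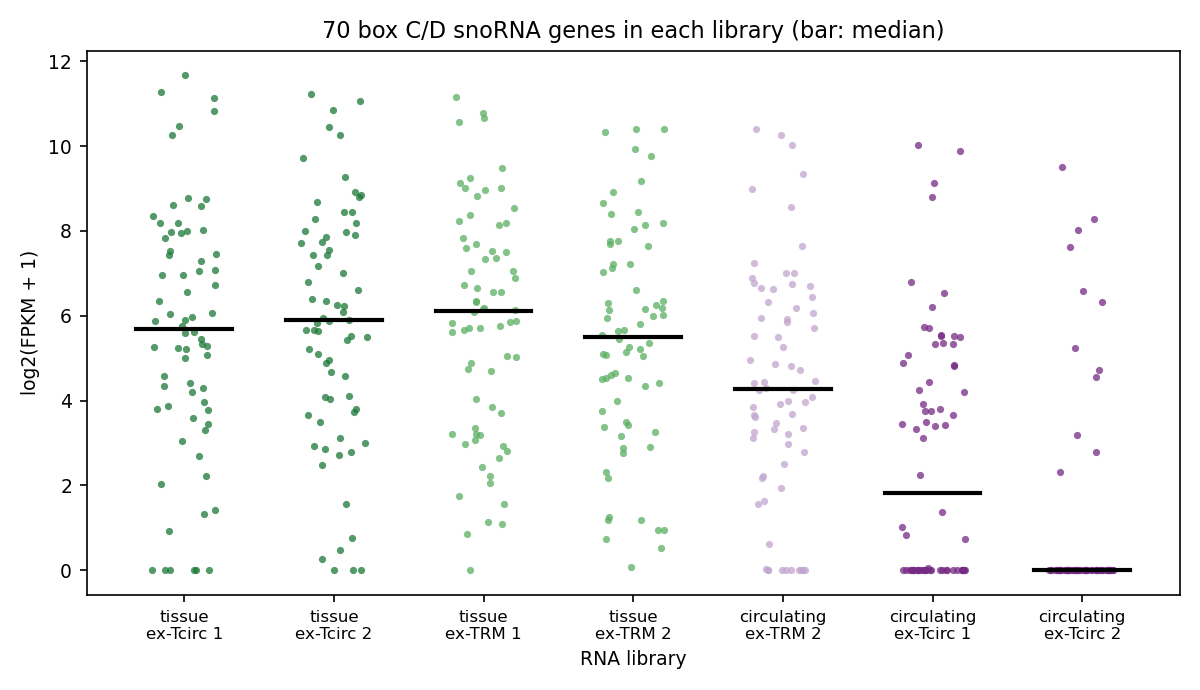
Level of each of the 70 box C/D snoRNA genes, log2(FPKM + 1) on the vertical axis, in the 7 libraries that were compared; 1 point is 1 gene and the bar is the median. Median levels lie between 43.9 and 68.1 FPKM in the tissue libraries, at 18.4 FPKM in CirculatingExTRM replicate 2, and at 2.67 and 0 FPKM in CirculatingExTcirc.

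Snord15b and Snord15a lie within Rps3, a protein of the small ribosomal subunit, at chr7:99479563-99479707 and chr7:99482785-99482932. Snord15b, the highest member, was listed at 3242 and 2387 FPKM in TissueExTcirc, 2294 and 1289 FPKM in TissueExTRM, 1048 and 311 FPKM in CirculatingExTcirc and 1231 FPKM in CirculatingExTRM replicate 2. Every tissue library was above every circulating one, although the lowest tissue value lay close to the CirculatingExTRM value. Snord15a, at 1408, 846, 710.0 and 576 FPKM in the same tissue libraries, had 649 FPKM in CirculatingExTRM replicate 2, which is above the lowest tissue library. In CirculatingExTcirc Snord15a was listed at 441 and 95 FPKM.

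Snord17, the longest member with 221 bases, lies within Snx5, which encodes a sorting nexin, at chr2:144265982-144266202. It was listed at 2251 and 1853 FPKM in TissueExTcirc, 1763 and 1349 FPKM in TissueExTRM, 949.5 and 257 FPKM in CirculatingExTcirc and 1351 FPKM in CirculatingExTRM replicate 2. The last value lay just above the lowest tissue library, so the locations overlapped.

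Snord21, within the ribosomal protein gene Rpl5 at chr5:107904555-107904648, differed more. Its tissue values were 1807, 1396, 1507 and 871 FPKM, against 3.77 and 22.6 FPKM in CirculatingExTcirc and 375 FPKM in CirculatingExTRM replicate 2. The circulating libraries lay well below all tissue libraries and also differed from each other.

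Snord33 and Snord32a share the host Rpl13a, a ribosomal protein gene that holds 4 members. Snord33, at chr7:45126864-45126945, had 110.3 and 0 FPKM in CirculatingExTcirc and 509.5 FPKM in CirculatingExTRM replicate 2, all under the lowest tissue value of 981 FPKM. Snord32a had 434, 485, 499.6 and 279 FPKM in tissue, 72.2 and 0 FPKM in CirculatingExTcirc and 127 FPKM in CirculatingExTRM replicate 2. Again no circulating library reached the lowest tissue library.

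The same order held for the remaining members among the 10 highest, Snord55, Snord99 (host Snhg12) and Snord57 (host Nop56, itself a core protein of box C/D particles). Snord55 ranged from 402 to 615 FPKM in tissue and was at 52.5, 0 and 200.2 FPKM in CirculatingExTcirc replicates 1 and 2 and CirculatingExTRM replicate 2. Snord99 ranged from 292 to 519 FPKM in tissue against 45.6, 0 and 102 FPKM. Snord57 ranged from 327 to 562 FPKM in tissue against 1.01, 4 and 72.2 FPKM.

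**Figure D2:**
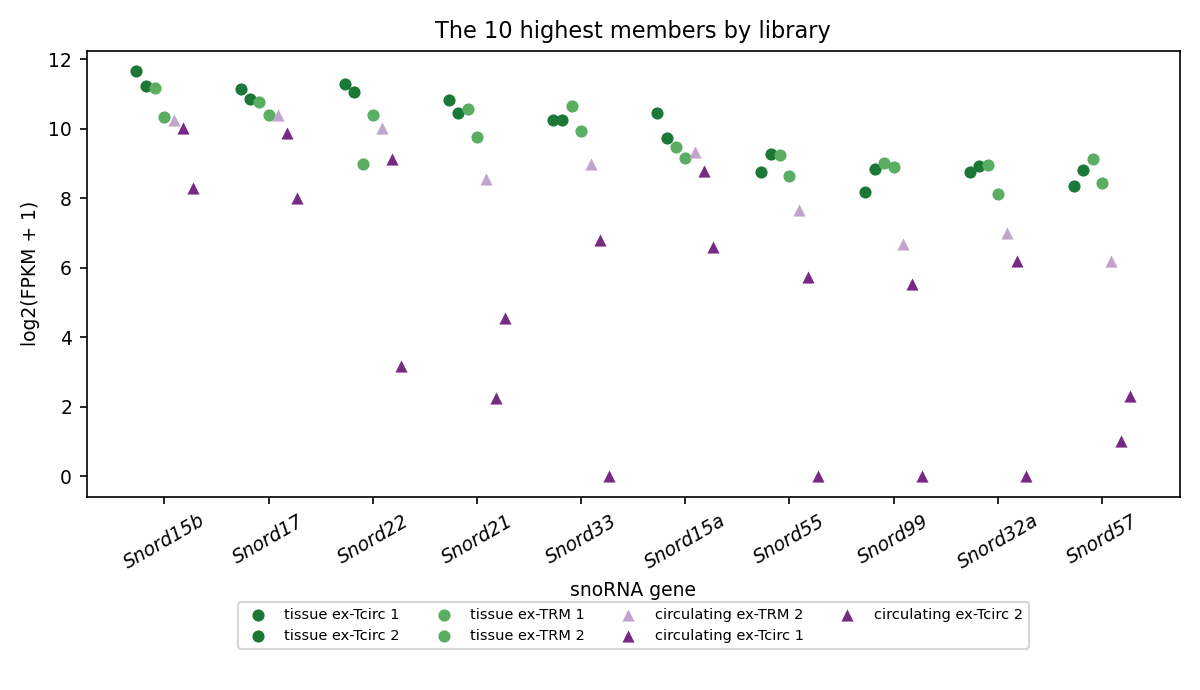
The 10 members with the highest mean level, as log2(FPKM + 1) on the vertical axis; circles are the 4 tissue libraries and triangles the 3 circulating libraries. The CirculatingExTRM triangles, with 375 FPKM for Snord21 and 72.2 FPKM for Snord57, lie between the tissue circles and the CirculatingExTcirc triangles for 7 of the genes and within the tissue range for Snord17, Snord22 and Snord15a.

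The members known for a part in processing precursor ribosomal RNA stood at tissue means from 41.6 FPKM (Snord14c) to 1617 FPKM (Snord22). Snord22 (U22), within the non-coding Snhg1 at chr19:8725866-8725991, was listed at 2483 and 2133 FPKM in TissueExTcirc, 511 and 1342 FPKM in TissueExTRM, 554 and 8.06 FPKM in CirculatingExTcirc and 1046 FPKM in CirculatingExTRM replicate 2. Its TissueExTRM replicate 1 value was below those of 2 circulating libraries, and the locations overlapped. Snord118 (U8), for which no host gene was found, had 182 and 172 FPKM, 118 and 95.7 FPKM, 92.1 and 0 FPKM, and 127 FPKM in the same order, and also overlapped. Snord13 (U13), likewise without a host gene, had 134 and 59.1 FPKM, 58 and 45.5 FPKM, 27.1 and 0 FPKM, and 44.8 FPKM; its highest circulating value was just under its lowest tissue value.

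The U14 genes Snord14c and Snord14d lie within Hspa8, a constitutive heat shock protein. Snord14d was listed at 131 and 187 FPKM in TissueExTcirc, 131 and 62.8 FPKM in TissueExTRM, 0.0305 and 0 FPKM in CirculatingExTcirc and 14.8 FPKM in CirculatingExTRM replicate 2. Snord14c had 32.5, 49.9, 51.1 and 33 FPKM in tissue, against 1.58, 0 and 18 FPKM. Both were separated by location. The U3 gene carries another name and was not a member.

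Gas5, a non-coding host of many guide RNAs, is named for growth arrest. Snord47, which lies within Gas5, was listed at 3.08 and 22.9 FPKM in TissueExTcirc, 32.4 and 24.3 FPKM in TissueExTRM, 0 and 5.94 FPKM in CirculatingExTcirc and 8.52 FPKM in CirculatingExTRM replicate 2. Snord80 and Snord78, known as snoRNAs of the same gene, ranged from 36.4 to 70.7 FPKM and from 1.14 to 3.51 FPKM in tissue. Snord80 had 12.9, 0 and 8.25 FPKM in the circulating libraries and was separated from tissue. Snord78 had 0, 0 and 2.09 FPKM there, and for Snord78 and Snord47 the locations overlapped.

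Location was compared first as the mean of the ex-TRM and ex-Tcirc differences, tissue minus circulating, with limma on log2(FPKM + 1) and Benjamini-Hochberg adjustment over the 2656 genes with a mean of at least 20 FPKM, among them 48 members. Of these 48, 14 were higher in tissue at an adjusted p under 0.05 and 0 were lower, which is 29.2% of the members tested. Among all genes tested 6.55% were called higher in tissue, and 7.34% were called in either direction. The median log2 difference was 3.16 for the 48 members and 0.43 for all genes, and the difference was above 0 for 48 of 48 members and for 63.3% of all genes. Scaling by median-of-ratios factors left 48 of 48 members and 71.3% of all genes above 0, called 11 members and 2.64% of all genes, and moved the median of all genes to 0.63. The medians of members and of all genes were 3.83 and 0.77 without CirculatingExTcirc replicate 1, and 2.38 and -0.05 without its replicate 2, so that the sign for all genes rested on the latter library. A minimum on the mean favours members that are high in the larger, tissue side, so these counts describe the genes tested and not all 70.

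Snord58b, within the ribosomal protein gene Rpl17, was listed at 289.7, 239.6, 228 and 215 FPKM in tissue, 97.8 FPKM in CirculatingExTRM replicate 2 and 0 in both CirculatingExTcirc libraries, a difference of 4.61 ± 0.22 (log2, SE; limma adjusted p = 0.01934). Snord14d differed by 4.91 ± 0.41 (limma adjusted p = 0.02392), the largest among the called members. The smallest was 1.79 ± 0.23 (limma adjusted p = 0.03151) for Snord8, which had 172, 212, 181 and 139 FPKM in tissue and 44.9, 36.9 and 60.6 FPKM in the circulating libraries. The other 11, in falling order, were Snord57, Snord49b, Snord21, Snord60, Snord66, Snord11, Snord50b, Snord90, Snord59a, Snord65 and Snord37, from 4.76 to 3.01. For Snord65 the difference was 6.12 within ex-Tcirc cells, where both circulating libraries were at 0, and -0.04 within ex-TRM cells. Its averaged difference thus came from ex-Tcirc cells. Although Snord65 and Snord37 were called, the locations overlapped for both, through CirculatingExTRM replicate 2.

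Of the 14 called members, 9 had 0 FPKM in each of the CirculatingExTcirc replicates. The same was listed for 11 of the 48 members tested and 7.08% of all genes tested. A pair of zeros shows no spread between replicates. By contrast, Snord33 differed by 4.08 ± 1.86 (limma adjusted p = 0.3818) and was not called, its CirculatingExTcirc replicates being 110.3 and 0 FPKM. Snord15b differed by 1.38 ± 0.56 (limma adjusted p = 0.324) and Snord17 by 1.12 ± 0.54 (limma adjusted p = 0.4119). Leaving out any 1 of the 4 tissue libraries ended all calls among members. So did adding CirculatingExTRM replicate 1, with 0 of 44 members called over all 8 libraries, and so did a block for replicate number. With 1 CirculatingExTcirc replicate left out, no circulating group had replicates. Differences between tissue replicates then set the error of the test, so calls from these fits are not given. The difference was above 0 for 46 of 48 members without CirculatingExTcirc replicate 1 and for 47 of 47 without its replicate 2.

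Within ex-Tcirc cells, 16 of 48 members (33.3%) were called higher in tissue and 0 lower, against 8.36% of all genes tested called higher and 9.11% called in either direction. The 16 include all 14 of the averaged comparison, which shares these libraries, and in addition Snord16a and Snord14c. Snord16a, in the ribosomal protein gene Rpl4, had 61.2 and 95.9 FPKM in TissueExTcirc and 0 in both CirculatingExTcirc libraries. Snord14c differed by 4.68 ± 0.68 (log2, SE; limma adjusted p = 0.02369) and Snord21 by 7.23 ± 0.86 (limma adjusted p = 0.01257). The median was 5.11 for members and 0.87 for all genes. It was 6.27 and 1.59 without CirculatingExTcirc replicate 1, and 3.001 and -0.10 without its replicate 2. No call was made without any 1 of the 4 tissue libraries, nor when only the ex-Tcirc libraries were fitted. Without CirculatingExTcirc replicate 1 the difference was above 0 for 46 of 48 members, and without its replicate 2 for 47 of 47. No circulating group had replicates in these fits, so their calls are not given.

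Within ex-TRM cells, the circulating side was 1 library, assumed to vary like the others, and limma called 0 of 48 members and 0 of 2656 genes (0%), with 8 members and 87 genes at an unadjusted p under 0.05. The median was 1.31 for members and -0.06 for all genes, and 44 of 48 members and 45.2% of all genes were above 0. Median-of-ratios factors moved these medians to 1.60 and 0.23. With only the ex-TRM libraries fitted, the medians were 1.34 for members and -0.03 for all genes. Without CirculatingExTcirc replicate 2 they were 1.32 and -0.05. Only tissue groups had replicates in these fits, so their calls are not given. The location difference itself was compared between origins by an interaction term, chosen after the values were seen. It called 4 of 2656 genes (0.151%), among them 1 member, Snord58b, which differed by 6.88 ± 0.45 (log2, SE; limma adjusted p = 0.04565). The difference for the other members is not shown to depend on origin.

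Within tissue, no member passed the test between the origins. There limma called 0 of 48 members and 0 of 2656 genes (0%), with 0 members and 7 genes at an unadjusted p under 0.05. The median difference, ex-TRM minus ex-Tcirc, was -0.16 for members and 0.17 for all genes, and 16 of 48 members were above 0. The sign of the median rested on 1 library: TissueExTRM replicate 2 was the lowest of the 4 tissue libraries for 29 of the 48 members (60.4%), against 17.1% of all genes tested. Without it 29 of 47 members were above 0 and the median was 0.08.

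Counted without a model, every tissue library was above every circulating library for 38 of the 48 members tested (79.2%), against 12.1% of all genes tested. Over all 70 members the count was 44, against 12% of the genes that reached 1 FPKM in at least 2 libraries. Either minimum can be met through the tissue libraries alone, which favours such a separation. Snord11, for example, was at 0, 0 and 16 FPKM in the circulating libraries. The counts are therefore a description. Leaving out each library in turn gave 38 to 45 of the 48, against 12.4% to 28.7% of all genes tested. Both highest values came without CirculatingExTRM replicate 2. With both CirculatingExTcirc libraries left out, CirculatingExTRM replicate 2 was below every tissue library for 40 of the 48 (83.3%), against 17.4% of all genes. This library listed nearly as many genes as TissueExTcirc replicate 1, 29688 against 30488. Set against that library alone, 46 of 48 members were lower and the median member stood at 40.0%, while 27.8% of all genes were lower and the median gene stood at 131%. TissueExTcirc replicate 1 had the highest members' sum of the tissue libraries, 18620.4 FPKM, and is of the other origin. Location and origin thus cannot be told apart in this pair, and the part of depth was not tested.

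Locations overlapped for 10 of the 48 members tested, Snord17, Snord15a, Snord118, Snord22, Snord16a, Snord12, Snord111, Snord65, Snord37 and Snord43, named here because their number is small. Snord12 and Snord43 were the only tested members with their highest value in CirculatingExTcirc replicate 2 (4.17% of 48, against 17.9% of all genes). Snord12, within the non-coding Zfas1 at chr2:167065293-167065358, was listed at 37, 82.7, 81 and 68.7 FPKM in tissue, 20.8 and 723 FPKM in CirculatingExTcirc and 25.3 FPKM in CirculatingExTRM replicate 2. Zfas1 was at 134 FPKM in the same library and at 11.1 to 31.8 FPKM in the others. Snord43, within Rpl3, was at 196 FPKM there and at 0 to 17.4 FPKM elsewhere. Apart from this library, neither was above the tissue range.

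Markers of other cells differed between libraries. Of these lists only Lyz2 (myeloid) and Sftpc (lung epithelial) reached the minimum of 20 FPKM, and neither was called within ex-Tcirc. The other markers were not tested there. Among genes with 1 FPKM or more in 2 or more libraries, 1 of 6 lung epithelial markers was called higher in tissue within ex-Tcirc. No other marker of these lists was called in that fit, against 21.1% of all genes. The summed level of 7 myeloid markers was 52.2 to 172 FPKM in tissue, with 5 to 7 of them above 0, and 783 and 308 FPKM in CirculatingExTcirc, with 5 and 3 above 0. Most of it was Lyz2, at 646 and 255 FPKM there, while Adgre1 and Itgam were listed at 0 in both. The myeloid sum was 78.3 FPKM in CirculatingExTRM replicate 2, within the tissue range. The summed level of 6 lung epithelial markers was 4.1 to 88.1 FPKM in tissue, 588 and 0 FPKM in CirculatingExTcirc and 36.5 FPKM in CirculatingExTRM replicate 2. B cell markers summed to at most 7.59 FPKM, with Cd79a and Cd79b listed at 0 in every library, and erythroid markers to at most 4.03 FPKM. The 4 endothelial markers summed to 8.59 to 26.8 FPKM in tissue, 52.3 (all Pecam1) and 5.53 FPKM in CirculatingExTcirc and 18.6 FPKM in CirculatingExTRM replicate 2. Sums of the 4 fibroblast markers were 2.72 to 15.5 FPKM, 13.3 and 2.91 FPKM, and 4.13 FPKM, in the same order. The part of these cells in the snoRNA differences was not tested, and fewer cells of a type cannot be told apart from less RNA per cell in such bulk samples.

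The share of the tissue level found in the circulating libraries was set beside the length of the RNA. RefSeq (GRCm38.p6) gave a length for 66 members, from 28 to 221 bases with a median of 68, and for 45 of the 48 tested. The bounds used here were chosen after the values were seen. In CirculatingExTRM replicate 2 the median member stood at 35.2% of its tissue mean below 70 bases (23 members), at 40.5% from 70 to 89 bases (11 members) and at 53.4% from 90 bases (11 members). In CirculatingExTcirc replicate 1 these medians were 4.91%, 14.1% and 36.6%, and in its replicate 2 they were 0%, 0% and 0.498%. The 5 members of at least 120 bases, Snord17, Snord15a, Snord15b, Snord118 and Snord22, stood at 53.4% to 89.3% in CirculatingExTRM replicate 2. In CirculatingExTcirc replicates 1 and 2 they stood at 34.3% to 64.9% and at 0% to 14.3%. The 40 shorter ones had medians of 36.6%, 9.49% and 0% in these libraries, in that order. Locations overlapped for 4 of these 5 and for 6 of the 40 shorter members.

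As a description across 45 genes, which share libraries and are not independent, Spearman's rho between length and the share of the tissue mean was 0.244 in CirculatingExTRM replicate 2, 0.483 in CirculatingExTcirc replicate 1 and 0.271 in its replicate 2. Length also went with the tissue level itself (rho 0.448), so length and level are not separate here. All genes tested had medians of 110% and 96.5% of their tissue mean in CirculatingExTRM replicate 2 and CirculatingExTcirc replicate 1. In CirculatingExTcirc replicate 2 the median of all genes was 28.2%, and 1025 of the 2656 genes were listed at 0. Low shares in that library were thus not limited to small RNAs.

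Other small nuclear RNAs, chosen after the values were seen, gave a scale for this. Among tested genes of at most 250 bases, the 55 that RefSeq types as snRNA had a median of 74.9% in CirculatingExTRM replicate 2. In CirculatingExTcirc replicates 1 and 2 their medians were 38.9% and 12.3%. The 74 typed as snoRNA other than members had medians of 52.6%, 19.6% and 0%, in that order. Low shares were thus not particular to the members. The 26 tested H/ACA snoRNA genes (Snora), whose RNAs guide the change of uridine to pseudouridine, had medians of 46.1% and 24.9% in CirculatingExTRM replicate 2 and CirculatingExTcirc replicate 1. The 8 tested genes for small Cajal body RNAs (Scarna), which guide the modification of spliceosomal RNAs, had medians of 72.8% and 51.7%. The 5 copies of U3 (Rnu3) had medians of 72.8% and 27.6%, and the highest of them in both libraries was Rnu3a, with 212 bases, at 92.7% and 49.1%. Rmrp, the 275-base RNA of RNase MRP, stood at 74.8% and 59.4%. Rn7sk, the 332-base 7SK RNA, stood at 102% and 99.1%, and Rpph1, the 325-base RNA of RNase P, at 91.2% and 123%. In CirculatingExTcirc replicate 2 the medians were 0.964% for H/ACA, 0.893% for Cajal body genes and 27.7% for the U3 copies. The U3 median was thus about as in replicate 1, whereas the other medians were lower. Rnu3a stood at 1.72%, Rmrp at 36.8%, Rpph1 at 42.8% and Rn7sk at 61.8%, each lower than in replicate 1. In that library Rnu3a was below Snord17 (14.3%) and Snord15b (13.5%), whereas the U3 median was above both.

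**Figure D3:**
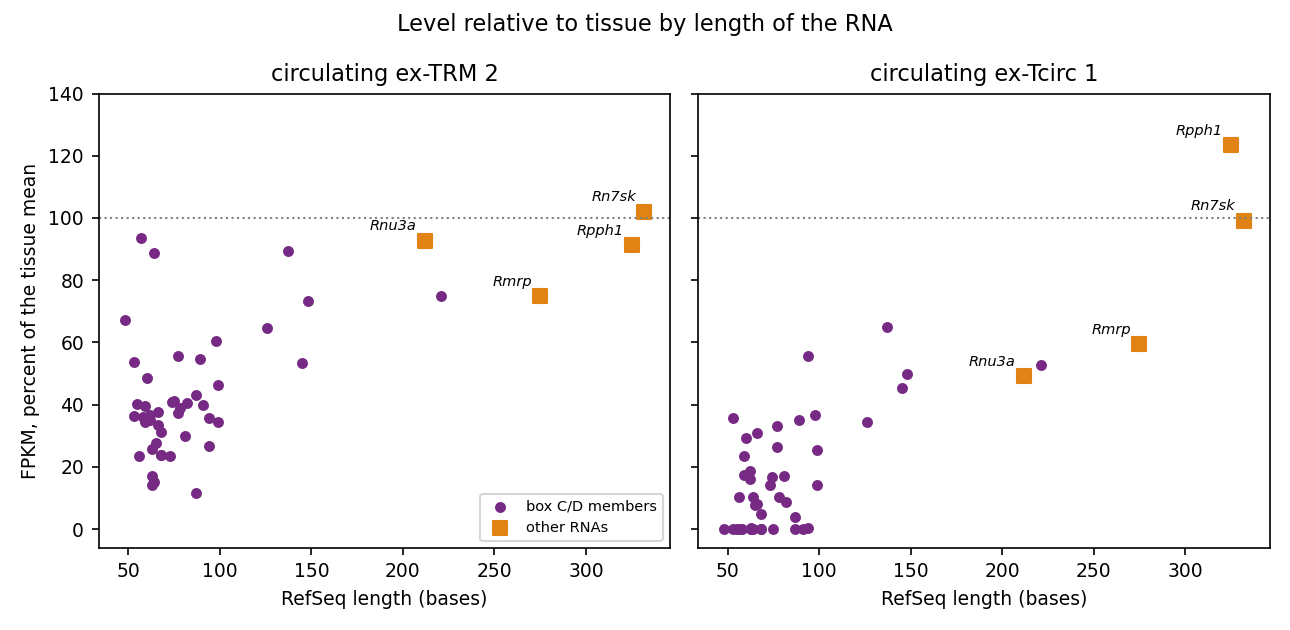
FPKM as percent of the tissue mean (vertical axis) against RefSeq length in bases (horizontal axis) for the tested box C/D members (circles) and for Rnu3a, Rmrp, Rpph1 and Rn7sk (squares), in CirculatingExTRM replicate 2 (left) and CirculatingExTcirc replicate 1 (right). The dotted line marks the tissue level; no member reaches it, and members of at least 120 bases lie at 53.4% to 89.3% on the left and 34.3% to 64.9% on the right.

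No tested host gene passed the test in any comparison. By position, 62 members lay within 46 host genes of the files, 19 in genes for ribosomal proteins, 16 in non-coding genes and 27 in other protein-coding genes. For 7 members more than 1 gene enclosed them and the shortest was taken, and strand was not used. Median tissue levels of the members were 157, 81.2 and 37.7 FPKM for these host classes. Of 30 hosts tested, 0 were called in any of the 4 comparisons. Rps3 had 127, 137, 144 and 135 FPKM in tissue, 158 and 101 FPKM in CirculatingExTcirc and 179 FPKM in CirculatingExTRM replicate 2, whereas Snord15b was lower in all circulating libraries. Rpl5 had 122 to 167 FPKM in tissue and 183, 113 and 169.9 FPKM in the circulating libraries, whereas Snord21 was at 3.77, 22.6 and 375 FPKM there. Location differences in limma were -0.15 ± 0.24 (log2, SE) for Rps3 and -0.05 ± 0.26 for Rpl5.

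Other hosts were low in CirculatingExTcirc together with their members, although none was called. Rpl13a had 608, 509.6, 312 and 372 FPKM in tissue, 73.9 and 0 FPKM in CirculatingExTcirc and 744 FPKM in CirculatingExTRM replicate 2. Within ex-Tcirc its difference was 6.01 ± 2.15 (log2, SE; limma adjusted p = 0.2186), beside 6.85 for Snord33, 5.89 for Snord34, 5.75 for Snord32a and 4.13 for Snord35a, which were not called either. The same difference was 3.36 for 2410006H16Rik, 2.61 for Snhg12 and 1.70 for Nop56.

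In CirculatingExTRM replicate 2 the 31 hosts of tested members had a median of 112% of their tissue mean, and in CirculatingExTcirc replicate 1 of 90.3%. Among 41 tested members with a host, 37 stood at a lower share of the tissue mean than their host in the former library and 35 in the latter. The 4 that stood higher in CirculatingExTRM replicate 2 were Snord22, Snord8, Snord71 and Snord65, and for Snord8 and Snord71 the host that position assigns is 1 of several. Snhg1, the host of Snord22, had 15.2, 23.7, 94.3 and 25.6 FPKM in tissue, so that the library with the highest host value, TissueExTRM replicate 1, had the lowest Snord22 value of the 4.

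**Figure D4:**
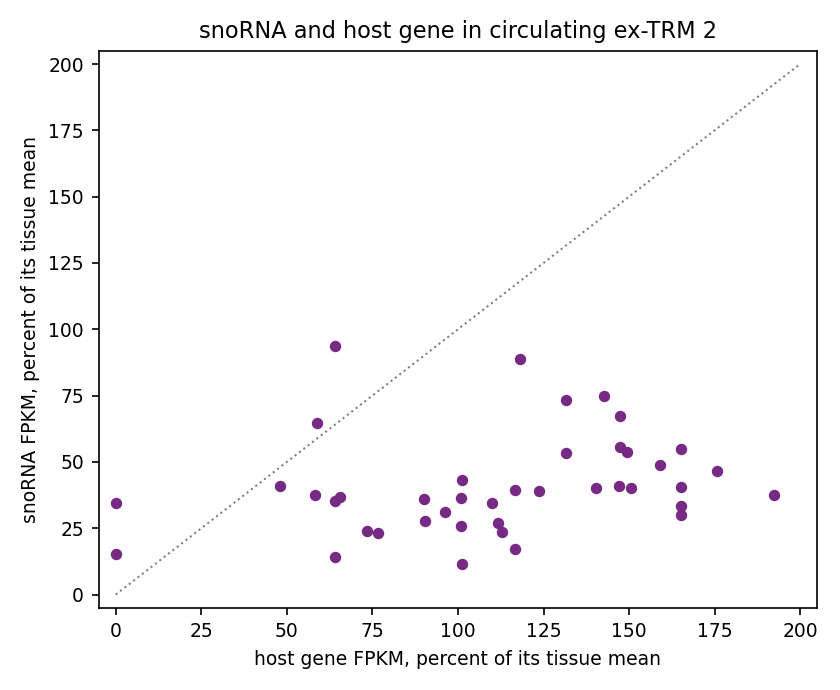
Each point is a tested member with a host gene, placed by the host's FPKM in CirculatingExTRM replicate 2 as percent of the host's tissue mean (horizontal axis) and by the same percent for the snoRNA (vertical axis); the dotted line marks equal percents. Of 41 points, 37 lie below the line.

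Members within the same host gene also stood at very different levels. In Snhg16 the tissue mean was 118 FPKM for Snord1b and 0.934 FPKM for Snord1a, a 126-fold range. Rpl13a held Snord33 at 1259 FPKM and, at the low end of its 4 members, Snord35a at 93.3 FPKM, a 13.5-fold range, with the host itself at 450.5 FPKM. In Nop56, Snord57 was at 420.5 FPKM and Snord110 at 51.5 FPKM. Narrower ranges were found in Rps3, 2.60-fold, and in Hspa8, 3.08-fold. Across 41 members, the host's tissue level and the member's had a Spearman's rho of 0.138.

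Host genes of snoRNAs often begin transcription in a run of pyrimidines, a feature of ribosomal protein genes. Windows of 50 bases, from 20 before to 30 after the annotated start, were read from RefSeq (GRCm38.p6) and searched on the transcribed strand for at least 8 neighbouring bases that are each C or T. Such a run was present in 13 of 38 host windows (34.2%), against 18.95% of all 32851 windows of this length in the table. On the other strand the shares were 10.5% and 21.9%. The windows for 4 hosts of the members described above are shown, with the runs in capitals: Rpl13a (chr7:45128716-45128765, minus strand), Snhg1 (chr19:8723467-8723516, plus strand), Snhg12 (chr4:132308658-132308707, plus strand) and Rpl5 (chr5:107900508-107900557, plus strand).

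Rpl13a: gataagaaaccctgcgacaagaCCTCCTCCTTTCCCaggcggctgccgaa
Snhg1: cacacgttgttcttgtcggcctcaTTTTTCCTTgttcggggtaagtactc
Snhg12: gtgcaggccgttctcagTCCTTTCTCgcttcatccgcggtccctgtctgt
Rpl5: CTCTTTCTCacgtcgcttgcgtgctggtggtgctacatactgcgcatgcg

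The windows of Rps3, Nop56, Snx5 and Gas5 held no such run. The run marked in Rpl5 lies wholly before the annotated start. A match is a description of these letters.

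Proteins that build and use box C/D particles were examined as lists of genes. Of the 4 core proteins, 2 passed the minimum, and 0 were called in any comparison. Fbl, the methyltransferase, had 22.3, 23.7, 25.7 and 31.3 FPKM in tissue, 22.1 and 145 FPKM in CirculatingExTcirc and 33.9 FPKM in CirculatingExTRM replicate 2. Nop56 had 38.6, 62.8, 53.6 and 72.9 FPKM in tissue, 12 and 17.4 FPKM in CirculatingExTcirc and 66.5 FPKM in CirculatingExTRM replicate 2, where Snord57, which lies within it, stood at 17.2% of its tissue mean. Nop58 and Snu13 were below the minimum, at 8.79 to 15.2 FPKM and 4.31 to 6.40 FPKM in tissue. The 8 assembly factors and 4 H/ACA core proteins had 0 tested genes. Summed levels of the assembly factors were 53.3 to 70.6 FPKM in tissue and 67.6 FPKM in CirculatingExTRM replicate 2, and all were listed at 0 in both CirculatingExTcirc libraries.

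Of 31 genes for RNA polymerase I and ribosomal RNA processing, 7 were tested, and 1 was called, Polr1d within ex-Tcirc, higher in tissue. Of 15 non-coding host genes 5 were tested, of 10 nonsense-mediated decay factors 2, and of 13 genes for snoRNA decay and trimming 1, and 0 of these were called in any comparison. Few genes of these lists reach a mean of 20 FPKM. Among genes with 1 FPKM or more in 2 or more libraries, the test within ex-Tcirc called higher in tissue 6 of 8 assembly factors, 11 of 31 genes for polymerase I and processing, 8 of 13 for decay and trimming, 4 of 10 nonsense-mediated decay factors, 2 of 15 non-coding hosts, 2 of 4 H/ACA core proteins and 1 of 4 box C/D core proteins, and 26 of 70 snoRNA members. It called 21.1% of all genes in that fit, and 0 genes of these lists were lower. In CirculatingExTRM replicate 2 each of these lists lay within or near its tissue range: 630.2 FPKM against 433 to 665 FPKM for polymerase I and processing, 223 FPKM against 218 to 333 FPKM for non-coding hosts, 183 FPKM against 171 to 205.1 FPKM for decay factors, and 131 FPKM against 119 to 151 FPKM for trimming. The members' sum in that library, 7475 FPKM, was below all 4 tissue libraries.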

How the data were processed

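The 8 RNA libraries hold 1 deposited FPKM value per gene, per the file headers. Libraries were made from sorted cells with a strand-specific kit, per the labels' protocols. Among the tools in the submitters' processing notes are StringTie 3.0.1 and HISAT2 2.2.1, with mm10 as the build. For the annotation and the strand setting of the counting, nothing is given in the sources used here. The 14 ATAC-seq samples are not analysed here.

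Values of a repeated gene name were summed. No pair of libraries held identical values. Group means were compared on log2(FPKM + 1) with limma 3.58.1 (R 4.3.3) over the 4 groups and 7 libraries with an intensity trend, on genes with a mean of at least 20 FPKM, with a threshold of 0.05 on adjusted p. A log2 difference on that scale understates the change of a low gene. The plan allowed for FPKM or TPM. The fit was tested on simulated data. Lengths, positions, hosts and promoters came from RefSeq tables of GRCm38.p6, in which 66 of 70 members matched; Snord50b, Snord60, Snord78 and Snord80 did not.

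The members and lists were chosen with earlier results of these data known. Named members were the 10 highest by mean, called members (up to 10 largest and 10 smallest differences per comparison), U3, U8, U13, U14 and U22, members hosted by Gas5 or Snhg1, members above 0 in all 7 libraries, and those at the edge of the rule. Hosts of named members and listed genes were named too; all else was chosen after values were seen. The hosts of some members are not reported here. Alternatives were a pseudocount of 0.1, other filters, all 8 libraries, median-of-ratios factors, the replicate block, only the groups compared, the highest value per name, and leaving out each library other than CirculatingExTRM replicate 2, the only one of its group in the fit.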

Additional observations from a re-analysis of the deposited data

Results flagged for a closer look

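Snord17 was listed at 10017.17 FPKM in CirculatingExTRM replicate 1, a library that was not used in the comparisons and that listed 917 gene names above 0. It was the only member above 0 there, and it made up 3.10% of the library's summed FPKM. In the other libraries Snord17 stood between 257 and 2251 FPKM.

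The location difference of Snord58b was larger in ex-Tcirc than in ex-TRM cells by 6.88 on the log2 scale (interaction term in limma, adjusted p = 0.04565). Snord58b was listed at 289.7 and 239.6 FPKM in TissueExTcirc, 0 in both CirculatingExTcirc libraries, 228 and 215 FPKM in TissueExTRM and 97.8 FPKM in the 1 CirculatingExTRM library. The ex-Tcirc arm thus holds zeros in the libraries that listed the fewest genes, and the part of depth in this difference was not tested.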

How the results depend on the processing

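Tissue against circulating, averaged, called 195 genes and 14 members. This became 3615 and 24 with a minimum of 1 FPKM in 2 or more of the 8 libraries, 4345 and 24 with no filter, 1 and 0 with genes above 0 in all 7 libraries, 0 and 0 with all 8 libraries, and 69 genes with median-of-ratios factors. Leaving out 1 library gave 0 to 1860 genes and 0 to 47 members. Within ex-Tcirc, 242 genes and 16 members became 5976 and 26, 4981 and 26, 13 and 2, and 0 and 0 under the first 4 of these settings, 0 and 0 with only the groups compared, and 0 to 1969 genes and 0 to 47 members with 1 library left out. Within ex-TRM, 0 genes and 0 members became 854 and 1 with no filter, 268 and 17 with only the groups compared, and 0 to 60 genes and 0 to 6 members with 1 library left out. Within tissue, 0 genes became 584 with no filter. The causes were not tested, beyond the fewer genes and samples that some settings leave. No called member changed direction in the settings that kept it among the genes tested.

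The labels do not say whether libraries with the same replicate number belong together. Correlations of deviations between same-numbered libraries were -0.09, -0.04 and 0.01, with CirculatingExTRM left out. Such correlations cannot exclude a shared experiment or batch. With the replicate block, 0 genes and 0 members were called for location averaged, and 158 genes and 11 members within ex-Tcirc. Depth is unknown and no interval on counts can be given.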
